A study of Mus musculus with 4 samples.

Results

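The genes described here are 9 ligands and receptors of blood vessel growth, Vegfa, Vegfb, Pgf, Angpt1, Angpt2, Tek, Apln, Aplnr and Adm, followed across 4 sections of infarcted mouse heart. They were chosen by symbol from the 32285 genes of the count matrices, all 9 were found, and all 9 held at least 100 UMIs (unique molecular identifiers, each standing for 1 captured mRNA molecule). The sections came from 4 ICR mice, 12 weeks old, in which the left anterior descending coronary artery had been tied for good to cause a myocardial infarction (MI), and 1 heart each was frozen on days 1, 4, 7 and 14. No genetic change or drug treatment is named for these mice, and an uninjured heart was not analysed here. mRNA was measured by Visium, in which a tissue section lies on a slide of barcoded spots and each spot collects the mRNA of the several cells above it. A value for a spot or group of spots is therefore a mixture, in which fewer cells of a type and less mRNA per cell cannot be told apart.

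Spots rich in blood, in which hemoglobin genes gave over 1% of the UMIs, were left out, and 7503 of 9102 spots remained, 1679 to 2086 per section, with 9292678 to 15713779 UMIs per section. Medians were 5188 to 8799 UMIs per spot. All 6 cardiomyocyte markers and all 8 endothelial markers checked had UMIs in every section. The day 7 section also held 118 spots with at least 10 UMIs of a list of 10 skeletal muscle genes, which no other section did. Barcodes name positions on the slide, so sections share them (1332 of 3178 occurred in all 4), and this says nothing of shared tissue.

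Vessel growth is steered by a few ligand families and their receptors on endothelial cells. VEGF-A acts through the receptor Kdr and drives sprouting and leakiness, while VEGF-B and placental growth factor (Pgf) bind the decoy-like receptor Flt1. Angiopoietin 1 activates the receptor Tek (Tie2) and keeps vessels quiet, and angiopoietin 2, released by endothelium, can oppose it. Apelin, made by sprouting endothelium, acts on the receptor Aplnr, and adrenomedullin (Adm) dilates vessels and tightens their wall through Calcrl with a Ramp protein. Vegfa, Apln, Adm and Angpt2 are known to be induced by low oxygen.

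Spots of each section were ranked in 2 ways and divided into 4 bins of equal size. The first ranking used the share of UMIs from Myh6 and Myl2, contractile genes of healthy cardiomyocytes. Its lowest bin holds the spots with the smallest share of these genes. The second used the share of UMIs from Ankrd1, Flnc, Xirp2 and Nppb, genes that strained cardiomyocytes raise, called the stress share here. A low stress share can also come from spots with few cardiomyocytes, so its lowest bin is not unstrained muscle alone. None of the 9 genes takes part in either ranking. Levels are given as CPM, UMIs per 1000000 UMIs of the group of spots, with exact Poisson 95% intervals that cover counting error only. The muscle left in the lowest Myh6+Myl2 bin differed between days. The summed cardiomyocyte markers were at 27439, 10295, 8812 and 35257 CPM there on days 1, 4, 7 and 14. In the highest bin they were at 44576.6 to 49960.5 CPM. The lowest bin of day 7 also held skeletal muscle genes at 20340 CPM, adipocyte genes at 768 and mesothelial genes at 239. It was therefore not injured heart muscle alone. On day 1 the lowest bin held adipocyte genes at 302 CPM, against 11.5 to 20.6 in the other bins of that day.

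Promoter windows are shown for Apln and Adm, whose CPM on day 1 was highest in the lowest Myh6+Myl2 bin. Pgf and Vegfa (130.1 against 102.2 to 119.7) were highest there too, and their windows are not shown. The last window is that of Vegfb, whose CPM on day 1 was lowest in that bin. Tek was lowest there too, at 27.8 against 29.2 to 35.1 with overlapping intervals, and its window is not shown. Each window is the 250 bases before the RefSeq transcript start on GRCm38.p6, read 5′ to 3′ on the gene's strand, at chrX:48034854-48035103 (minus strand) for Apln, chr7:110627407-110627656 (plus strand) for Adm and chr19:6987652-6987901 (minus strand) for Vegfb. Capitals mark GGGCGG, the core letters of a GC box, on either strand.
Apln: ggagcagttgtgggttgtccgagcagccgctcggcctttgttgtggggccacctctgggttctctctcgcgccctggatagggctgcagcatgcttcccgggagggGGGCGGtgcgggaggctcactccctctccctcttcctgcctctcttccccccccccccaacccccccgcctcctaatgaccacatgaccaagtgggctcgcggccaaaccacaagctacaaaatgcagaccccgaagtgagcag
Adm: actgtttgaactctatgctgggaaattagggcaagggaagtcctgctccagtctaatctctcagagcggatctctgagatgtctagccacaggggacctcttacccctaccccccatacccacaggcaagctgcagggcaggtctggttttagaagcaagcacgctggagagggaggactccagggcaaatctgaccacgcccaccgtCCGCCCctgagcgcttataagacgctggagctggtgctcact
Vegfb: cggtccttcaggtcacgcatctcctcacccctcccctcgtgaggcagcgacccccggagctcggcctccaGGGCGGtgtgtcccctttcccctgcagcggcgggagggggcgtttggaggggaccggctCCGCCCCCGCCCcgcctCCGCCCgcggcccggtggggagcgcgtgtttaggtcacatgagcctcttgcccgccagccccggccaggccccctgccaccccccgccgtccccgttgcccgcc
GGGCGG was found once in the windows of Apln and Adm and 4 times in that of Vegfb, and 32.7% of 32851 promoter windows of the same length held it. ACGTG, a form of the core letters to which hypoxia-inducible factors bind, was in none of these 3 windows and in 16.6% of all windows. The other form of that core, GCGTG, was not searched for, so these values do not cover all matches. TGANTCA, the letters of an AP-1 site, was in none of the 3 and in 6.75% of all. Windows were found for 6 of the 9 genes, and a match of letters is not a binding site. The ACGTG core occurred in no window of Pgf or Tek. Of the 2 windows of Vegfa, that before the gene's start (chr17:46032378-46032627) held none. It occurred once in the other (chr17:46025164-46025413), which lies within the span of the gene.

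By day, Apln, Adm, Pgf and Angpt2 had their highest level in the day 1 section. Apln (ENSMUSG00000037010, chromosome X, 48025146 to 48034853, minus strand, GRCm38) was at 23.6 CPM on day 1 (interval 20.9 to 26.5), 4.95 on day 4 (3.86 to 6.24), 12.7 on day 7 (10.5 to 15.2) and 7.51 on day 14 (6.22 to 8.99). The order was day 1, day 7, day 14 and day 4, and the intervals of the last pair overlapped narrowly. Adm (ENSMUSG00000030790, chromosome 7, 110627661 to 110629820, plus strand) was at 19.5 on day 1 (17.1 to 22.2), 11.5 on day 4, 11.8 on day 7 and 6.62 on day 14 (5.41 to 8.02), with overlapping intervals on days 4 and 7. With 1 mouse per day, days could not be tested against each other, and every order of days given here describes 4 animals.

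Pgf (ENSMUSG00000004791, chromosome 12, 85166635 to 85177790, minus strand) went from 19.0 on day 1 (16.6 to 21.6) through 13.5 and 12.6 on days 4 and 7, which overlapped, to 5.54 on day 14 (4.43 to 6.83). Angpt2 (ENSMUSG00000031465, chromosome 8, 18690263 to 18741562, minus strand) was at 5.61, 3.90 and 4.95 on days 1, 4 and 7, all with overlapping intervals, and at 1.72 on day 14 (1.13 to 2.50), below the other intervals. It was sparse, with a UMI in 52, 53, 42 and 26 spots on days 1, 4, 7 and 14. Angpt1 (ENSMUSG00000022309, chromosome 15, 42424723 to 42676977, minus strand) had another order: 21.1 on day 14 and 18.6 on day 1, which overlapped, against 7.87 on day 4 and 6.13 on day 7, which overlapped too. Its day 1 and day 14 intervals lay above those of days 4 and 7.

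Vegfa (ENSMUSG00000023951, chromosome 17, 46016993 to 46032369, minus strand) was highest on day 7 at 171.9 (163.5 to 180.5) and lay between 116.6 and 118.0 on the other 3 days, with overlapping intervals. Vegfb (ENSMUSG00000024962, chromosome 19, 6982473 to 6987651, minus strand) was at 332.9 on day 14 and 322.5 on day 7, which overlapped, 291.5 on day 1 and 261.5 on day 4. Among the receptors, Aplnr (ENSMUSG00000044338, chromosome 2, 85136225 to 85139923, plus strand) was at 42.7 (38.6 to 47.1) on day 7, against 21.2 on day 14, 17.3 on day 1 and 16.4 on day 4, where each neighbour overlapped the next. Tek (ENSMUSG00000006386, chromosome 4, 94739289 to 94874976, plus strand) ranged over 31.5, 31.2, 25.3 and 21.8 on days 1, 7, 4 and 14, and each neighbour in that order overlapped the next. Values are compared between days for 1 gene at a time and not between genes.

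Between the lowest and highest Myh6+Myl2 bins, Angpt2 and Apln were higher where Myh6 and Myl2 were low, and Vegfb, Vegfa, Angpt1 and Tek were lower there. This was tested with edgeR's quasi-likelihood test on UMIs summed per section and bin, with the section as a block, TMM normalization and Benjamini-Hochberg adjustment over 11621 genes. The 4 sections, each of another day, are the replicates, so a call concerns the mean difference over the days. Of the 9 genes, 2 were called higher at an adjusted p under 0.05, where 27.6% of all genes were, and 4 were called lower, where 25.0% of all genes were. The median log2 fold change was 0.19 over the 9 genes and 0.07 over all genes. With that many calls among all genes, these counts are no property of the 9 genes as a group.

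The scale matters in this comparison. TMM factors were 0.786 to 1.62, and with total UMIs in their place the median of all genes moved from 0.07 to 0.71 on the log2 scale, with 6802 genes higher and 1233 lower in place of 3203 and 2904. Changes below are relative to the TMM scale, and CPM are on the scale of total UMIs, so that the 2 can differ in sign for genes of small change.

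Vegfb had the clearest gradient. In the lowest bin it was at 167.7, 98.2, 147.6 and 261.0 CPM on days 1, 4, 7 and 14, against 369.1, 355.9, 387.8 and 354.7 in the highest. Levels in the highest bin differed little between days, while those in the lowest bin spanned a wide range, and no value of the lowest bin reached one of the highest. The log2 fold change of the lowest over the highest bin was -1.79 (SE 0.25, adjusted p = 4.56e-05, edgeR), with lower CPM in 4 of 4 sections. The ratio within sections was smallest on day 14, at -0.44 (-0.59 to -0.30), and largest on day 4, at -1.86 (-2.05 to -1.67), and the difference between days was not tested. The lowest bin also differed in muscle, with the summed cardiomyocyte markers at 35257 CPM on day 14 and 10295 and 8812 on days 4 and 7. The call held under all 16 alternatives, with values from -2.16 to -1.05.

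Vegfa was called lower too, but did not have the gradient of Vegfb on all days. It was at 130.1, 92.8, 95.2 and 117.1 in the lowest bin on days 1, 4, 7 and 14 and at 119.7, 122.2, 190.1 and 114.0 in the highest. By CPM it was lower in the lowest bin on days 4 and 7 and about level on days 1 and 14, so that the groups overlapped. Its log2 fold change was -0.89 (SE 0.23, adjusted p = 0.0037), and with total UMIs it was -0.27 and no longer called (adjusted p = 0.210).

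The division of UMIs between Vegfa and Vegfb needs no scaling, since both are counted in the same spots. Vegfa made up 43.7%, 48.6%, 39.2% and 31.0% of the UMIs of both genes in the lowest bin on days 1, 4, 7 and 14, against 24.5%, 25.6%, 32.9% and 24.3% in the highest. The share was higher in the lowest bin in 4 of 4 sections, and the exact Clopper-Pearson 95% intervals were apart on days 1, 4 and 14 and overlapped on day 7 (34.1 to 44.5% against 30.5 to 35.3%). On day 4 it was lower in each further bin, at 48.6, 37.7, 26.6 and 25.6%, whereas on day 1 the lowest bin stood alone, at 43.7% against 26.6, 25.7 and 24.5%.

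Angpt2 had the reverse pattern of Vegfb. It was at 16.4, 9.79, 11.6 and 5.28 CPM in the lowest bin on days 1, 4, 7 and 14 and at 2.06, 2.37, 4.22 and 0.714 in the highest, so that each value of the lowest bin lay above all of the highest. These rest on 45, 27, 17 and 11 UMIs against 6, 9, 11 and 3. Its fitted log2 fold change was 1.60 (SE 0.32, adjusted p = 0.00059), higher in 4 of 4 sections, and each section's counting interval was above 0. The call held under all 15 alternatives in which the gene could be tested, at 1.21 to 2.26. The lowest bin held 67.2% of the gene's UMIs on day 1 (54.6 to 78.2%) and 40.7% on day 14 (22.4 to 61.2%), where it held 22.9% and 13.3% of all UMIs.

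Angpt1 acts on the same receptor as Angpt2, and its ratio between the bins did not have 1 direction over the days. In the lowest bin it was at 2.92, 8.34, 13.6 and 14.4 CPM on days 1, 4, 7 and 14, against 25.1, 7.38, 3.46 and 29.7 in the highest. It was thus lower in the lowest bin on days 1 and 14, level on day 4 and higher on day 7, a difference between days that was not tested. These values rest on 8, 23, 20 and 30 UMIs against 73, 28, 9 and 125. For this gene the log2 fold change was -1.25 (SE 0.47, adjusted p = 0.0366), and the call was lost with total UMIs (-0.60, adjusted p = 0.309), with DESeq2 (-0.97, adjusted p = 0.084), with Tnnt2 and Actc1 as ranking genes (-0.04, adjusted p = 0.896) and without day 1, day 4 or day 14 (-0.68, -1.39 and -1.16, adjusted p = 0.12, 0.12 and 0.18). It held under 6 of 15 alternatives, with adjusted p from 0.00275 to 0.896 over all of them, and was lost too without the section block, with the outer bins alone and with the mean of spot shares. The lowest bin of day 7 is also where the skeletal muscle genes lay, at 20340 CPM for the list against 4.75 to 19.9 in the lowest bins of the other days; with those spots left out the log2 fold change was -1.53 (adjusted p = 0.0027).

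Among the UMIs of both angiopoietins, Angpt2 made up 84.9% in the lowest bin of day 1 (45 of 53 UMIs, 72.4 to 93.3%) and 14.3%, 7.45% and 7.59% in the other bins. On day 4 the share was 54.0% in the lowest bin (39.3 to 68.2%) and 23.8 to 25.0% in the rest, and on day 14 it was 26.8% (14.2 to 42.9%) against 2.34% in the highest (0.486 to 6.70%). Day 7 had no such gradient, at 45.9% and 55.0% with intervals that overlapped (29.5 to 63.1% and 31.5 to 76.9%).

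The receptor Tek was at 27.8, 30.8, 33.3 and 23.5 CPM in the lowest bin on days 1, 4, 7 and 14 and 35.1, 20.5, 32.6 and 23.8 in the highest. The groups overlapped, and the sections split with 2 higher and 2 lower. The counting interval of the ratio was above 0 on day 4 (log2 ratio 0.58, 0.12 to 1.05) and included 0 on the other days. On the TMM scale the log2 fold change was -0.58 (SE 0.16, adjusted p = 0.00574), but with total UMIs it was 0.06 and with the mean of spot shares 0.28, neither called (adjusted p = 0.747 and 0.24), and at a minimum of 1000 UMIs per gene the call was lost at -0.35 (adjusted p = 0.0621). Its direction therefore rests on the scale.

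Apln was concentrated in the lowest bin on 2 of the days. It was at 84.8 CPM there on day 1, against 7.21, 5.22 and 3.78 in the other bins, and 232 of 282 Apln UMIs of the section came from that bin (82.3%, 77.3 to 86.5%), which held 22.9% of all UMIs. On day 4 it was at 16.7 there against 3.12, 1.64 and 1.84, and the bin held 64.8% of its UMIs (52.5 to 75.8%). On days 7 and 14 the lowest bin, at 10.9 and 7.68, lay within the range of the others, which spanned 9.91 to 16.6 and 4.52 to 9.09. The log2 fold change over the 4 sections was 1.83 (SE 0.69, adjusted p = 0.0413), and without day 1 it was 0.58 (adjusted p = 0.400). The call was also lost without day 4 (1.72, adjusted p = 0.19) or day 14 (2.08, adjusted p = 0.069), and over all 15 alternatives the adjusted p ran from 0.00649 to 0.400, with 8 of them under 0.05.

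Its receptor Aplnr was at 21.9, 30.1, 66.7 and 20.6 CPM in the lowest bin on days 1, 4, 7 and 14 and at 16.9, 7.11, 31.9 and 17.6 in the highest, higher in 4 of 4 sections and overlapping between groups. Counting intervals of the ratio were above 0 on days 4 and 7 (log2 ratios 2.08 and 1.06, with lower bounds of 1.44 and 0.63). Relative to all genes on the TMM scale the log2 fold change was 0.29 (SE 0.20, adjusted p = 0.249), and with total UMIs it was 0.93 and called (adjusted p = 0.0041).

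Pgf was at 43.8, 30.1, 15.6 and 6.24 in the lowest bin on days 1, 4, 7 and 14 and at 12.4, 8.69, 12.3 and 8.56 in the highest, with the lowest bin apart from the others on days 1 and 4 and not on days 7 and 14. Its log2 fold change was 0.45 (SE 0.30, adjusted p = 0.232), and with total UMIs 1.07 (adjusted p = 0.0067). Adm stood out most on day 1, at 43.5 in the lowest bin against 17.7, 10.1 and 9.29 in the others. On days 4, 7 and 14 it was at 9.43, 8.84 and 11.04 against 9.22, 14.2 and 6.66 in the highest bin. The lowest bin of day 14 held 22.1% of the Adm UMIs (14.6 to 31.3%) and 13.3% of all UMIs. The log2 fold change of Adm was 0.19 (SE 0.44, adjusted p = 0.741).

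**Figure D1:**
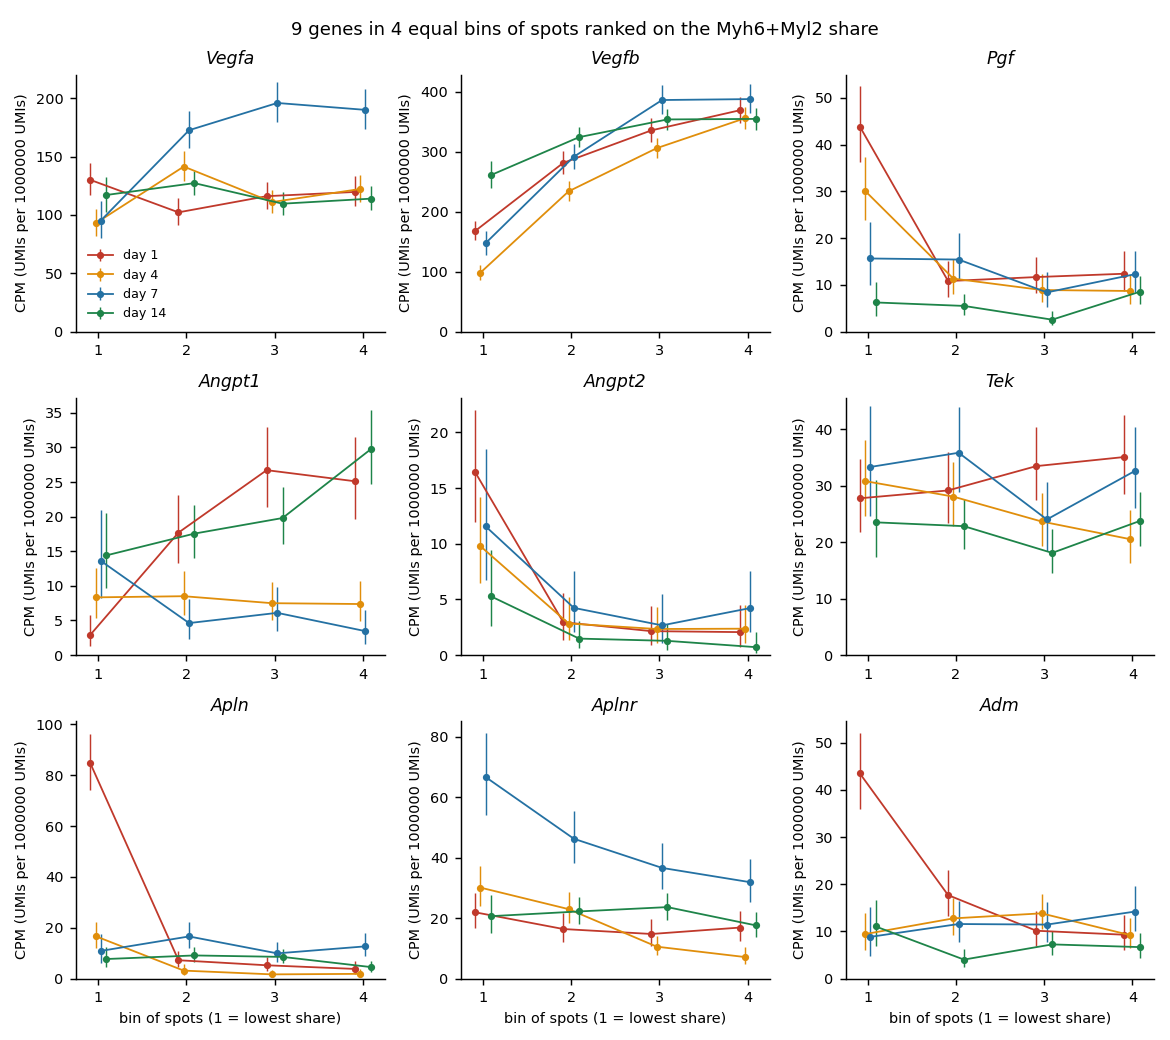
CPM (vertical axis) of each of the 9 genes in the 4 bins of spots ranked on the Myh6+Myl2 share (horizontal axis, 1 is the lowest share), with 1 line per day and bars for exact Poisson 95% intervals. Vegfb climbs from bin 1 to bin 4 on all 4 days and Angpt2 is lower in bin 2 than in bin 1 on all 4, whereas the peaks of Apln (84.8) and Adm (43.5) in bin 1 belong to day 1.

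With 10 equal bins in place of 4, a division made after the 4 bins had been seen and given as a description, the day 1 peak lay at the very end of the ranking. Apln on day 1 was at 129.2, 79.9, 20.5 and 12.0 CPM in the lowest 4 bins and between 0.793 and 6.77 in the other 6. Angpt2 was at 25.8, 14.6 and 6.31 in the lowest 3 bins and at or under 3.43 in the others. Adm was at 54.9 and 47.2 in the lowest 2 bins and at 21.3 in the next, and Pgf at 60.3 and 46.4 and then between 8.21 and 16.1. Angpt1 ran the other way, at 2.15, 2.58, 7.10 and 10.3 in the lowest 4 bins and at 28.6, 26.9 and 28.8 in the next 3. All 5 genes thus had their main step within the lowest 5 bins on day 1.

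**Figure D2:**
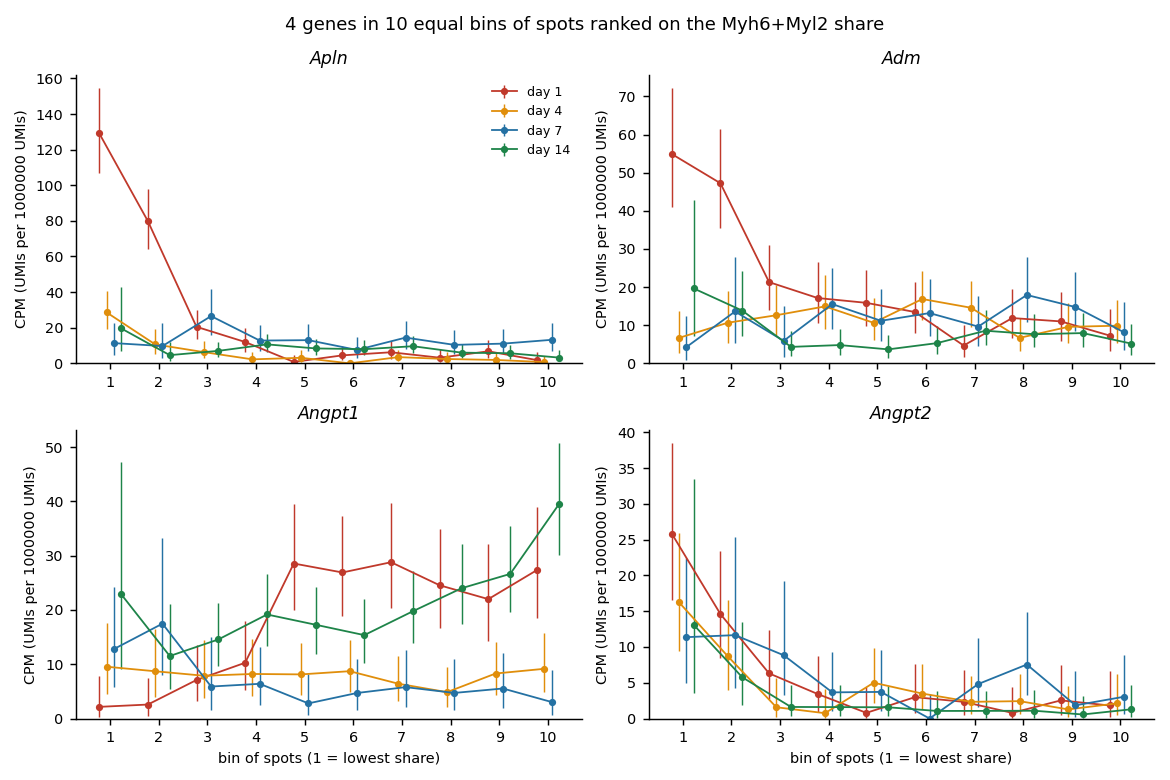
CPM (vertical axis) of Apln, Adm, Angpt1 and Angpt2 in 10 equal bins of spots ranked on the Myh6+Myl2 share (horizontal axis, 1 is the lowest share), 1 line per day, with exact Poisson 95% intervals. On day 1 Apln drops from 129.2 in the first bin to 20.5 in the third, while Angpt1 climbs from 2.15 in the first to 28.6 in the fifth.

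The stress ranking gave no call for the 9 genes. Its bins differed in tissue as well as in stress share. On day 7 the summed cardiomyocyte markers were at 22621 CPM in the lowest and 39454 in the highest bin. The fibroblast markers were at 17281 and 7946, the skeletal muscle list at 12095 and 153.4 and the adipocyte list at 523.8 and 6.94. On day 4 the fibroblast markers were at 9275 in the lowest, 3160 in the next and 11600 in the highest bin. On day 1 the cardiomyocyte markers went the other way, at 46666 in the lowest and 30964 in the highest bin. On edgeR's test none of the 9 had an adjusted p under 0.05, 3 of them (Pgf, Angpt1 and Adm) had an unadjusted p under 0.05, and DESeq2 called 1 (Angpt1, adjusted p = 0.025). Over all genes 0.559% were called higher in the highest stress bin and 0.310% lower. The median log2 fold change was 0.31 over the 9 genes and -0.02 over all genes.

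Angpt1 had the lowest fitted value of the 9 in this ranking. It was at 29.9, 9.08, 9.85 and 42.6 CPM in the lowest stress bin on days 1, 4, 7 and 14 and at 2.20, 7.11, 5.84 and 9.26 in the highest, lower in 4 of 4 sections. On days 1 and 14 it was lower in each further bin, and on days 4 and 7 the counting intervals of the ratio included 0. The log2 fold change of the highest over the lowest bin was -1.85 (SE 0.45, adjusted p = 0.0823), and without day 1 it was -1.40 and called (adjusted p = 0.0101).

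Vegfa was at 123.5, 80.6, 113.6 and 108.0 in the lowest stress bin and at 130.8, 149.6, 185.9 and 127.3 in the highest on days 1, 4, 7 and 14. Each section had more in its highest bin, and the counting interval of the ratio was above 0 on days 4, 7 and 14. The fitted value was 0.32 on the log2 scale (SE 0.22, adjusted p = 0.662), and without day 1 it was 0.58 (adjusted p = 0.0256). The share of Vegfa among the UMIs of Vegfa and Vegfb was 40.9%, 44.0%, 37.6% and 29.0% in the highest stress bin against 25.4%, 23.9%, 31.3% and 23.8% in the lowest, again higher in 4 of 4 sections.

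Apln, Angpt2 and Adm in the stress ranking differed between days, which was not tested. Apln went from 3.69 CPM in the lowest to 62.4 in the highest stress bin on day 1 and went from 9.37 to 3.98 on day 4, with counting intervals of the ratio on opposite sides of 0. Angpt2 went from 2.01 to 13.8 on day 1 and from 6.15 to 1.71 on day 4. Adm went from 6.71 to 36.4 on day 1 and differed little on the other days, at 11.1, 11.6 and 6.47 in the lowest against 12.5, 11.3 and 6.69 in the highest bin on days 4, 7 and 14. Aplnr was at 30.7 in the highest and 11.7 in the lowest stress bin on day 4, and its counting intervals included 0 on the other days. Pgf was higher in the highest stress bin in 4 of 4 sections, with an interval above 0 on day 1 (34.2 against 12.1), and Tek in 3 of 4, with an interval above 0 on day 4 (31.0 against 20.5).

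**Figure D3:**
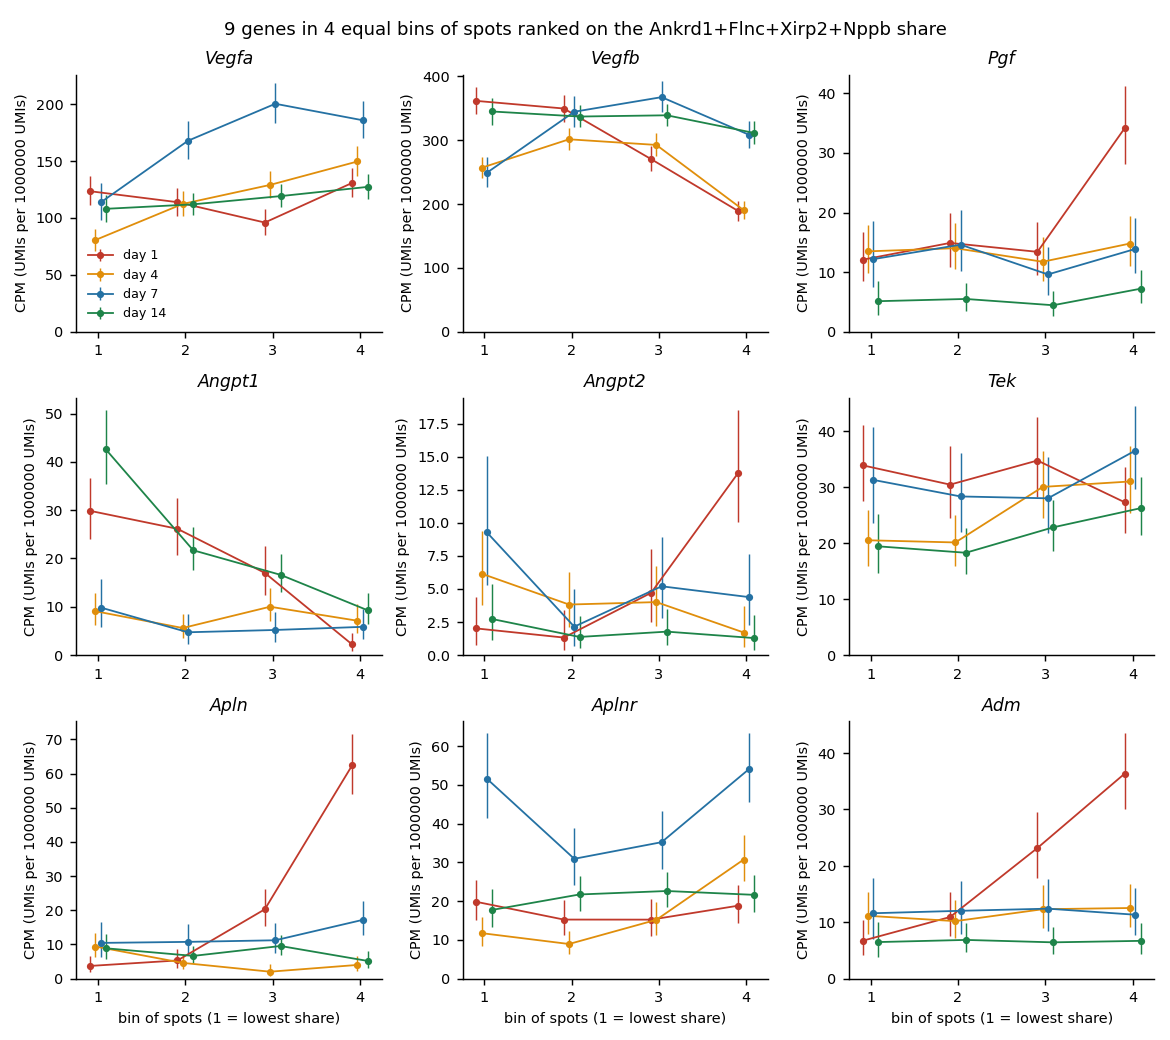
CPM (vertical axis) of the 9 genes in the 4 bins of spots ranked on the Ankrd1+Flnc+Xirp2+Nppb share (horizontal axis, 1 is the lowest share), 1 line per day, with exact Poisson 95% intervals. Angpt1 is lower in each further bin on days 1 and 14, and Apln, Adm, Pgf and Angpt2 peak in bin 4 on day 1, where Apln reaches 62.4.

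The 2 rankings were tied to each other on day 1 and hardly later. Spearman's rho between the shares over spots was -0.749, -0.172, 0.228 and 0.0747 on days 1, 4, 7 and 14, as a description over spots of 1 section each. Spots were therefore also split at the section's median of both shares, which gave 4 groups per section, and each share was tested with adjustment for the other. Below against above the median Myh6+Myl2 share, 1 of the 9 genes was called higher, where 23.2% of all genes were, and 3 were called lower, where 20.4% of all genes were. Angpt2 was higher by 0.99 on the log2 scale (SE 0.32, adjusted p = 0.022), and Vegfb at -0.93 (SE 0.23, adjusted p = 0.0049), Vegfa at -0.51 (SE 0.19, adjusted p = 0.0371) and Tek at -0.36 (SE 0.13, adjusted p = 0.0427) were lower. Each of these calls was lost under some alternatives. Vegfb kept its call under 11 of 13 alternatives, and lost it with other ranking genes (-0.46, adjusted p = 0.0561) and without day 7 (-0.83, adjusted p = 0.0509). Angpt2 kept it under 8 of 12, and lost it with other ranking genes (0.75, adjusted p = 0.167) and without day 4, 7 or 14 (0.91 to 1.17, adjusted p up to 0.0763). Vegfa kept it under 7 of 13 (adjusted p up to 0.359) and Tek under 4 of 13 (adjusted p up to 0.812), and with total UMIs they were at -0.14 and 0.04, neither called. Leaving out day 4 or day 7 ended the call of Vegfa, and leaving out day 1, 4 or 7 that of Tek.

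Above against below the median stress share, none of the 9 genes was called by edgeR or DESeq2, 1 (Angpt1, -0.80) had an unadjusted p under 0.05, and 0.0516% of all genes were called higher and 0.0344% lower. The groups nevertheless showed where the UMIs of single days lay. On day 1 Apln was at 49.5 CPM in spots low in Myh6+Myl2 and high in stress, and at 2.88 in spots low in both (2 UMIs, 0.349 to 10.4), 4.71 in spots high in Myh6+Myl2 and low in stress and 3.50 in spots high in both. On day 4 it was at 21.7 in spots low in both and at 4.19 in those low in Myh6+Myl2 and high in stress, the reverse order. Angpt2 on day 4 was at 3.31 in the low Myh6+Myl2, high stress spots (1.85 to 5.45) and at 12.6 in those low in both (7.89 to 19.05). On day 1 it was at 10.4 (7.79 to 13.6) and 1.44, but the latter is 1 UMI and the intervals overlapped (0.0365 to 8.02).

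Pgf on day 4 was at 14.8 in the low Myh6+Myl2, high stress spots (11.4 to 18.8) and at 32.03 in those low in both (24.2 to 41.6). On day 1 it was at 28.3 (23.8 to 33.3) and 13.0, the latter from 9 UMIs, with intervals that overlapped (5.93 to 24.6). Angpt1 on day 1 was at 6.67 in the low Myh6+Myl2, high stress spots and between 23.4 and 40.3 in the other 3 groups. Adm on day 1 was at 32.6 in the low Myh6+Myl2, high stress spots and between 8.67 and 16.4 in the other groups. The day 1 values for spots low in both, or high in both, rest on 128 spots each, against 817 in each of the other groups.

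**Figure D4:**
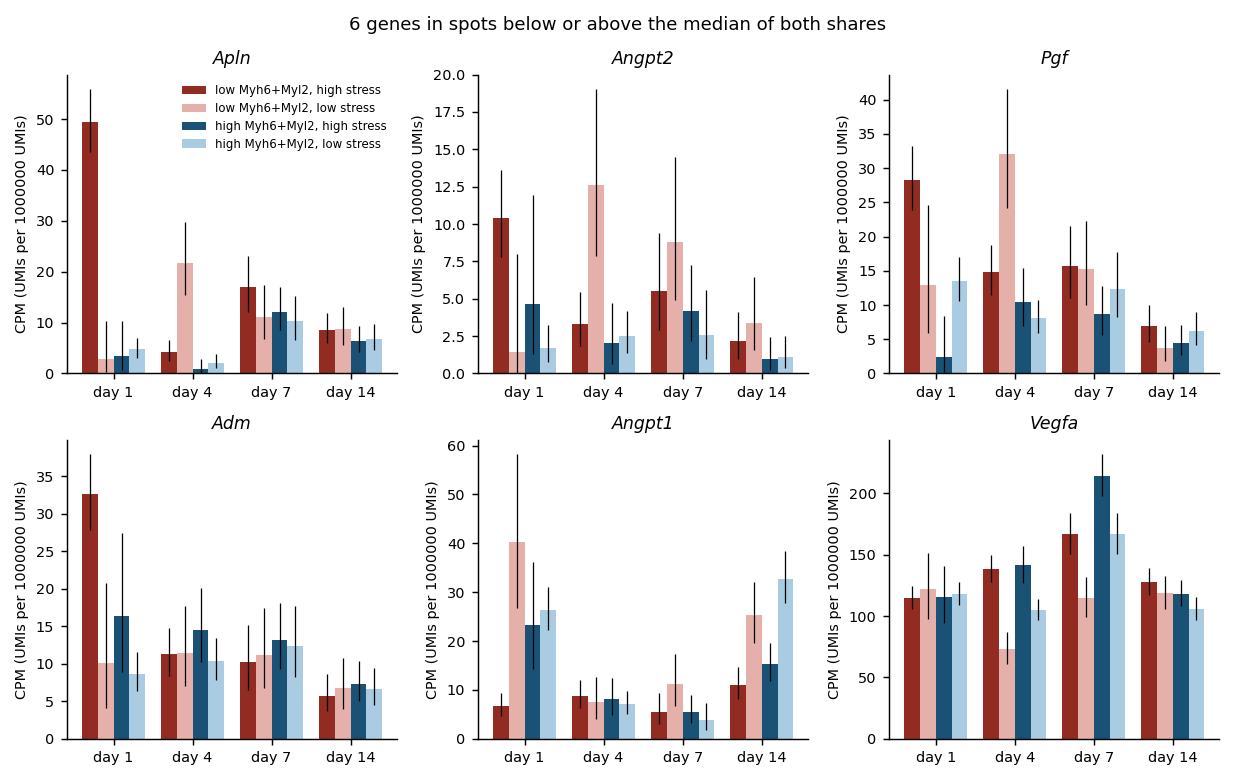
CPM (vertical axis, from 0) of 6 genes on each day (horizontal axis) in 4 groups of spots split at the section's median of the Myh6+Myl2 share and of the stress share, with exact Poisson 95% intervals as lines. Apln is at 49.5 in spots low in Myh6+Myl2 and high in stress on day 1 and at 21.7 in spots low in both on day 4.

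**Figure D5:**
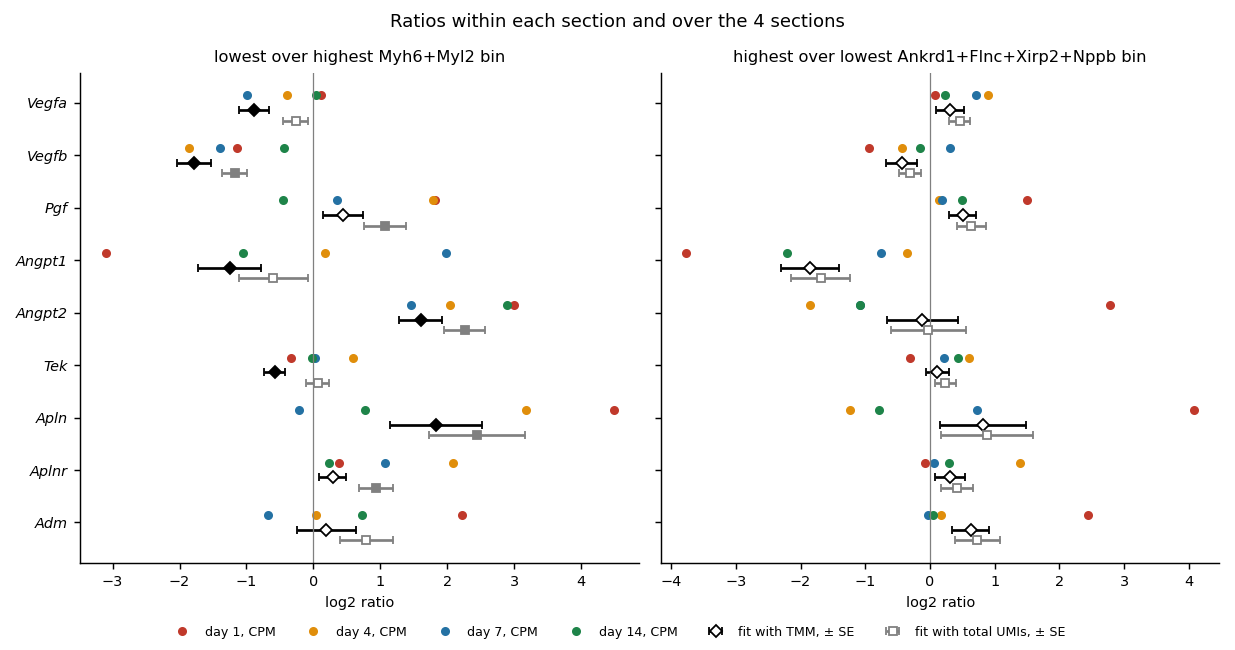
Log2 ratio (horizontal axis) of each of the 9 genes (vertical axis), for the lowest over the highest Myh6+Myl2 bin on the left and the highest over the lowest stress bin on the right. Coloured points are CPM within each section, diamonds the edgeR value with TMM and squares that with total UMIs, both with their SE as bars and filled where the adjusted p was under 0.05; Vegfb is on the negative side and Angpt2 on the positive side on the left for all 4 sections and both fits.

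Partners of these ligands and receptors were called in both directions between the Myh6+Myl2 bins, as were 27.6% (higher) and 25.0% (lower) of all genes. Of 7 VEGF partners, Vegfd, a ligand of lymphatic growth (log2 fold change 1.83, SE 0.43, adjusted p = 0.00225), and the co-receptor Nrp2 (0.96, SE 0.19, adjusted p = 0.000487) were higher in the lowest bin. The receptors Kdr (-0.84, SE 0.19, adjusted p = 0.00197) and Flt1 (-0.61, SE 0.25, adjusted p = 0.0461) were lower on the TMM scale. With total UMIs Kdr and Flt1 lost their calls, and Flt1 was at 0.0083. By CPM within sections, Flt1 had log2 ratios of 0.65, -0.33, -0.67 and 0.05 on days 1, 4, 7 and 14. Its counting interval was above 0 on day 1 (0.34 to 0.97) and below 0 on day 7 (-1.17 to -0.18). For Kdr the interval was below 0 on day 7 (-0.99 to -0.30) and included 0 on the other days. Vegfc, Flt4 and Nrp1 were not called, at 0.10, 0.53 and 0.04. The list's median was 0.10, near the 0.07 of all genes.

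Neither tested angiopoietin partner was called, and Angpt4 had too few UMIs. Tie1, the second receptor of the Tie family, was at -0.55 (adjusted p = 0.0646) and the phosphatase Ptprb at -0.38 (adjusted p = 0.0578). By CPM within sections, Tie1 had log2 ratios of -0.51, 1.06, -0.79 and 0.56 on days 1, 4, 7 and 14. Its counting interval was above 0 on day 4 and below 0 on day 7. Ptprb was at 0.28, 0.25, -0.05 and 0.49, with an interval above 0 on day 14. Of the apelin partners only Mme, a peptidase that cleaves apelin, could be tested, and it was lower (-1.17, SE 0.32, adjusted p = 0.00581). Of 5 tested adrenomedullin partners, the receptor Calcrl was higher (0.46, adjusted p = 0.0331), while Ramp3, which turns Calcrl into an adrenomedullin receptor, and Ackr3, a scavenger receptor, were lower (-1.36 and -0.99, adjusted p = 0.00126 and 0.00175). Ramp2, another partner of Calcrl, was at -0.33 (adjusted p = 0.059). By CPM, however, Ramp2 had log2 ratios of 0.13, 0.30, 0.49 and 0.29 on days 1, 4, 7 and 14, with intervals above 0 on days 4 and 7. By CPM within sections, the counting intervals of the ratio included 0 on every day for Ramp3 and for Mme. Ackr3 was lower on days 4 and 7 (log2 ratios -0.74 and -1.03) and about level on days 1 and 14 (0.03 and 0.07).

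Of 12 hypoxia-inducible factors and known targets of theirs, 4 were higher and 5 lower, beside 27.6% and 25.0% of all genes, and nothing is read from these counts about the list. Hif1a itself (1.03), the glucose transporter Slc2a1 (0.91), the collagen hydroxylase P4ha1 (0.69) and the glycolytic activator Pfkfb3 (1.00) were higher. Epas1 (-0.77), the oxygen sensor Egln1 (-1.52), Bnip3 (-1.02), Pdk1 (-1.56) and Vldlr (-1.53) were lower. By CPM within sections, the counting interval of the ratio was below 0 on every day for Egln1 but not for the others. Epas1 had log2 ratios of -0.35, -0.38, -0.07 and 0.20 on days 1, 4, 7 and 14. Intervals included 0 for Pdk1 on day 1 (-0.18), Bnip3 on days 7 and 14 (-0.11 on each) and Vldlr on day 14 (0.14). The median of the list was -0.68. Of 5 tested genes of sprouting endothelium, 4 were higher, beside 27.6% of all genes: Plvap (2.44, SE 0.31, adjusted p = 2.75e-05), Unc5b (1.68), Cxcr4 (1.67) and the basement membrane gene Nid2 (1.28), and the Notch ligand Dll4 was at -0.37 (adjusted p = 0.279). Cxcr4 is also a gene of leukocytes. In the stress ranking no gene of these 6 lists was called.

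Markers of other cell types moved with the Myh6+Myl2 ranking. All 5 macrophage markers and 4 of 5 fibroblast markers were called higher in the lowest bin, and both tested neutrophil markers were. The summed macrophage list was at 898.5 to 5696 CPM in the lowest bin over the 4 days and 243.1 to 380.5 in the highest, the fibroblast list at 1638 to 28719 and 868.9 to 1283, and the neutrophil list at 51.8 to 370.9 and 2.37 to 17.2. Neutrophil markers were highest on day 1, the day of the Apln and Adm peaks. On the TMM scale none of the 8 endothelial markers was called higher and 1, Ly6c1, was lower. By CPM the summed endothelial list was higher in the lowest than in the highest bin on each day. It was at 769.2, 795.7, 691.7 and 529.3 in the lowest bin on days 1, 4, 7 and 14, against 601.3, 647.2, 655.4 and 447.0. Of 5 pericyte markers, 1 (Pdgfrb) was higher and 3 (Rgs5, Kcnj8 and Abcc9) lower, with the list at 328.5 to 534.6 and 406.6 to 526.3. No marker of these 5 lists was at 0 in either outer bin, apart from Retnlg in the highest bin of day 14. All 6 cardiomyocyte markers were lower. Of the remaining lists, 3 of 4 smooth muscle, 2 of 3 tested mesothelial and 10 of 10 skeletal muscle markers were higher. Of 3 lymphatic markers 1 (Prox1) was lower, and none of 3 tested adipocyte markers was called. The summed lymphatic list was at 66.5, 17.4, 115.6 and 327.7 CPM in the lowest bin on days 1, 4, 7 and 14. In the highest bin that list was at 70.2, 78.2, 76.4 and 66.9. In the stress ranking 7 of 10 skeletal muscle and 2 of 3 tested mesothelial markers were lower, and no marker of the other lists was called. On day 1 alone, however, the summed neutrophil list was at 18.1 CPM in the lowest and 275.7 in the highest stress bin and the macrophage list at 231.2 and 773.1, in the bin where Apln, Adm, Pgf and Angpt2 peaked. On days 4, 7 and 14 both lists were lower in the highest stress bin, the neutrophil list at 8.77 to 17.5 against 26.4 to 98.8. The part of these cell types in the differences of the 9 genes was not tested.

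Depth was lower in the lowest than in the highest Myh6+Myl2 bin on 3 of the days, with medians of 6524.5, 2826 and 2329.5 UMIs per spot against 9221, 5515 and 8278 on days 4, 7 and 14. On day 1, the day of the Apln and Adm peaks, it was not, at 6389 in the lowest and 5971 in the highest bin. With spots under 1000 UMIs left out, the log2 fold changes of the 6 called genes were -0.82 for Vegfa, -1.68 for Vegfb, -1.25 for Angpt1, 1.80 for Angpt2, -0.55 for Tek and 1.86 for Apln, and each was still called.

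The genes most alike to each of the 9 over the 32 libraries of both rankings were found by Pearson's r of log2(CPM + 1), among genes with at least 1000 UMIs, and are given as a description, since libraries share their sections. Vegfb was most like Ndufb10, Mcrip2 and Slc25a11 (r = 0.984, 0.984 and 0.983), of which Ndufb10 and Slc25a11 are mitochondrial. Vegfa was most like Cdh13 (0.896), a cadherin, and Angpt1 was most like Dbp (0.827), a transcription factor of the circadian clock. Angpt2 was most like Set, Srgn and Atf4 (0.912, 0.910 and 0.909), Apln like Strap (0.883), Adm like the small heat shock gene Hspb1 (0.899), Aplnr like Tpt1 (0.881), Pgf like Imp3 (0.913) and Tek like Tmem160 (0.858). The r of the sparse genes is limited by their counts, as Angpt2 had 196 UMIs in all.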

How the data were processed

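The authors made the deposited UMI counts per gene and spot with Space Ranger 1.3.0 on mm10 from fresh-frozen sections, and Seurat 4.1.1 is listed in the submitters' processing notes. The deposited counts are not normalized, and CPM was computed from them here. The paper's results text calls the earliest section day 2; it is day 1 here, as its label says.

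Spots in which 8 hemoglobin genes gave over 1% of the UMIs were left out, a filter taken from the study's methods with the genes chosen here. The study also removed spots near the tissue edges by hand, which was not done here. UMIs were summed per section and group of spots. Genes with at least 100 UMIs were fitted with edgeR 4.0.16 (TMM, robust quasi-likelihood, section block, 16 libraries, 9 residual degrees of freedom for the ranked bins and 10 for the spots split on both shares), with Benjamini-Hochberg adjustment across 11621 genes. The fit was tested on simulated counts. SE is the log2 fold change over the square root of F. Poisson, conditional (ratios) and Clopper-Pearson intervals are exact at 95% and cover counting error only. A count of 0 would allow 3 UMIs, or 0.191 to 0.323 CPM of a section.

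All 9 genes were named by rule, with partner, hypoxia, sprouting and marker lists and the 3 most alike genes of each. The members and lists were chosen with earlier results of these data known. Coordinates are from GENCODE vM21 on GRCm38, and promoters from RefSeq on GRCm38.p6, for 6 of the 9 genes. Alternatives were total UMIs in place of TMM, DESeq2 1.42.0, minima of 10 and 1000 UMIs per gene, no section block, no hemoglobin filter, shallow or skeletal muscle spots left out, other ranking genes, 3 bins in place of 4, outer bins alone, the mean of spot shares with limma 3.58.1, and each section left out. Images and spot coordinates played no part here.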

Additional observations from a re-analysis of the deposited data

Results flagged for a closer look

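Only the 9 genes were searched here, and not the other lists. In 4 cases among them the counting intervals of the ratio within sections lay on opposite sides of 0 on different days. Each day is 1 mouse, so the difference between days was not tested in any of them. Angpt1 in the lowest over the highest Myh6+Myl2 bin had a log2 ratio of -3.10 on day 1 and -1.05 on day 14 and of 1.98 on day 7. The day 7 value rests on 20 against 9 UMIs and the day 1 value on 8 against 73. In the highest over the lowest stress bin, Apln was at 4.08 on day 1 and -1.24 on day 4, and Angpt2 at 2.78 on day 1 and -1.85 on day 4. Vegfb in that comparison was at -0.94, -0.43 and -0.15 on days 1, 4 and 14 and at 0.31 on day 7.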

How the results depend on the processing

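Vegfb and Angpt2 in the Myh6+Myl2 bins were called with the same direction under every alternative that tested them. The levels per day moved by less than their counting intervals without the hemoglobin filter and without shallow spots. With a minimum of 1000 UMIs per gene only Vegfa, Vegfb, Tek and Aplnr were tested. Each day is 1 mouse, sparse genes rest on few UMIs, and no uninjured section was analysed here. Bins were compared within sections, with the section as a block in every fit except those made without it; days could not be paired, since each is 1 sample. Causes of the changes listed here were not tested.

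Counts of genes in the Myh6+Myl2 bins were 6802 higher and 1233 lower with total UMIs, 6957 and 1389 with the mean of spot shares, and 1679 and 1548 at a minimum of 1000 UMIs, where fewer genes were tested. In the stress bins 106 were higher with total UMIs, and higher and lower counts were 108 and 63 with DESeq2, 9 and 1 without the section block, 2 and 1 with outer bins alone and 14 and 7 with 3 bins in place of 4. There 14 were lower at a minimum of 1000 UMIs and 13 with the mean of spot shares, and leaving out a section gave 6 (without day 4) to 225 (without day 1) higher and 2 (without day 7) to 365 (without day 1) lower. For the Myh6+Myl2 share of the spots split on both shares, counts were 5683 and 844 with total UMIs, 1400 and 1331 at 1000 UMIs, 1013 and 775 with other ranking genes, and 1572 to 2662 and 834 to 2314 with a section left out. For the stress share of that split they were 22 and 9 with DESeq2, 3 and 0 at 1000 UMIs, 2 and 0 without the block, 37 and 12 with other ranking genes, and 2 to 7 and 0 to 5 with a section left out, while 1 was lower with total UMIs, 9 at 10 UMIs and 2 without shallow spots.

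Signs turned as follows on the log2 scale. In the Myh6+Myl2 bins, Tek was at 0.064 with total UMIs and 0.28 with the mean of spot shares, Flt1 at 0.0083 and 0.028, Aplnr at -0.10 and Adm at -0.072 with other ranking genes, and Adm at -0.0070 with 3 bins in place of 4. Leaving out a section gave -0.0049 to 0.74 for Pgf and -0.69 to 0.60 for Adm, both lowest without day 1. In the stress bins, Angpt2 was at 0.011 without the block and Tek at -0.036 with the mean of spot shares. A section left out gave -1.31 to 0.33 for Angpt2, -0.36 to 1.46 for Apln and -0.012 to 0.54 for Aplnr. For the Myh6+Myl2 share of the spots split on both shares, Tek was at 0.039 and Adm at 0.11 with total UMIs, and Aplnr at -0.10 and Adm at 0.17 with other ranking genes. For the stress share of that split, Vegfb was at 0.0088 with total UMIs, Angpt2 at 0.010 without the block, and Pgf at 0.20 and Angpt2 at 0.22 with other ranking genes. A section left out gave -0.15 to 0.17 for Vegfb, -0.55 to 0.35 for Angpt2, -0.29 to 0.78 for Apln and -0.039 to 0.35 for Aplnr.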
